A study of Rattus norvegicus with 2 samples.

Results

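The neurofilament subunit genes Nefl, Nefm, Nefh and Ina and the genes of the microtubule-associated proteins (MAPs) Mapt, Map2, Map1a and Map1b were described in the hypothalamus of female rats around puberty. These 8 genes were taken by their symbols in the deposited tables, from a list of proteins that build and bundle the neuronal cytoskeleton, and are 8 of the 22777 genes with mRNA transcripts. They account for 17 of the 26324 mRNA transcripts. All 8 passed a filter of a mean FPKM of at least 1 over both libraries, as did 13804 genes in all.

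The prepubertal group was Sprague Dawley rats on postnatal day 25 and the pubertal group Sprague Dawley rats on postnatal day 35, with no treatment or genotype named, with 3 rats per stage by the study's methods. Each stage has a single column of values in the deposited tables, the sources used here do not say how the animals were pooled or averaged, and each column was treated as 1 library. There is therefore no spread between animals, no test between the stages was made, and every difference below lacks a replicate check. The study took the same tissue at 2 ages to compare the state before puberty with that at its onset. Its supplement defines the pubertal rats as those in their first estrus. Age, puberty and this phase of the estrous cycle therefore cannot be told apart.

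Neurofilaments are the intermediate filaments of neurons and set the calibre of axons. They are built from a light (Nefl), a medium (Nefm) and a heavy (Nefh) subunit together with alpha-internexin (Ina), which appears early in neuronal development, whereas the heavy subunit is known to come late. MAPs bind and stabilise microtubules: tau (Mapt) mainly in axons, MAP2 (Map2) in dendrites and cell bodies. MAP1B (Map1b) is known from growing axons, and MAP1A (Map1a) from mature neurons.

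Expression was given as FPKM, fragments normalised to transcript length and library depth, summed over the transcripts of a gene. Low FPKM values of genes with 1 transcript came in steps that correspond to whole fragments, which placed the depth at about 20700000 fragments before puberty and about 16200000 at puberty. By these steps, each of the 8 genes rests on 1232 or more fragments in each library. Intervals below are 95% counting intervals from these approximate fragment numbers. They cover counting error only and say nothing of the rats. Differences are log2 of (pubertal FPKM + 1) over (prepubertal FPKM + 1), so a positive value stands for a higher level at puberty.

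Promoter sequences are shown for Ina and Map1b, which had lower values in the pubertal library as deposited and whose windows before the start lie outside the annotated gene. With the libraries scaled to equal Actb, the beta-actin gene, their log2 ratios were 0.11 and -0.01. The sequences are those of RefSeq on the GRCr8 assembly, 250 bases up to the start, written 5′ to 3′ on the strand of the gene. Ina lies on the plus strand at chr1:255837879-255838128 and Map1b on the minus strand at chr2:32644472-32644721. Capitals mark GC boxes (GGGCGG, here on the opposite strand) in Ina and a TATA box (TATAAA) in Map1b.
Ina: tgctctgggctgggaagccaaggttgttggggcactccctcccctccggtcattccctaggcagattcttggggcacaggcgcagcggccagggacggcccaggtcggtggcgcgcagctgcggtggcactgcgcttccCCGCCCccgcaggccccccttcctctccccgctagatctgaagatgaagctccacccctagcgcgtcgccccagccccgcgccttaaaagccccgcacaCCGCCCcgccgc
Map1b: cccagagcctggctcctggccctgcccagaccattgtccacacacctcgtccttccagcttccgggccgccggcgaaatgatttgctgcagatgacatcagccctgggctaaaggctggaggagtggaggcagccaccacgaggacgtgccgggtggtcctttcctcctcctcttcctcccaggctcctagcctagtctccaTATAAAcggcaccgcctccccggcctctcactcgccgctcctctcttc

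The Ina window holds GC boxes that begin 111 and 12 bases before the start, and the Map1b window a TATA box that begins 48 bases before it. In all, 4 of the 8 genes had a promoter in the table, Ina, Map2, Map1a and Map1b, matched by symbol. Nefl, Nefm, Nefh and Mapt had no entry. The Map1a and Map2 windows lie inside the annotated gene. GC boxes were found in Map1a as well, 59 and 48 bases before the start, and no motif was found in the Map2 window. Both strands were searched for 5 motifs. Of the 33469 promoters of the same length, 12.9% hold the TATA box TATAAA, 11385 promoters hold the CCAAT box with the letters CCAAT, and 30.5% hold the GC box GGGCGG. The cAMP response element TGACGTCA is held by 1.59% and a core of the RE1 element, TCAGCACC, by 417 promoters. A match in such a window is a description of its letters. The share of G and C was 70.8% in Ina, 63.6% in Map1b, 60.4% in Map1a and 32.0% in Map2, against a median of 51.2% over all promoters (quartiles 44.0% and 60.0%).

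All 8 genes were well expressed at both stages, and their order by FPKM was the same in both libraries. The level of Nefl was the highest, with 326 FPKM before puberty and 333 FPKM at puberty, rank 347 and rank 359 among the 13804 genes. Map2 followed with 255 and 279 FPKM and Map1b with 179 and 134 FPKM. In the middle of the order stood Mapt, with 88.4 and 77.2 FPKM, and Map1a, with 77.7 and 65.1 FPKM. The lowest levels were those of Nefh, Nefm and Ina, and even Ina lay above 75.1% of the 13804 genes before puberty and above 70.1% at puberty. FPKM is scaled to transcript length, so these levels can be set beside each other within a library. Which neighbours in the order would keep their places between rats is not known, as there is 1 column per stage.

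**Figure D1:**
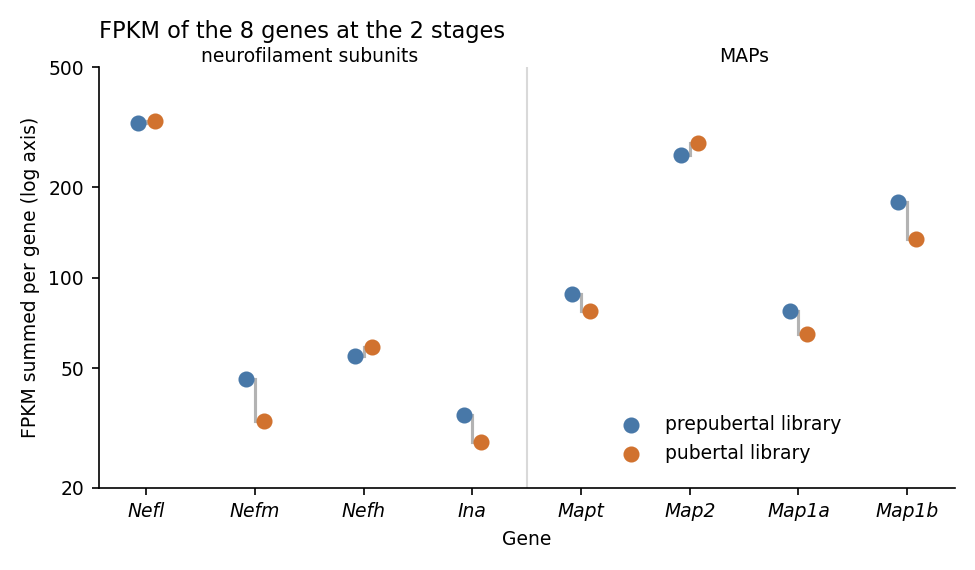
FPKM per gene, summed over its transcripts, on a log axis for the 4 neurofilament subunit genes (left) and the 4 MAP genes (right); each point is 1 library, and the grey line joins the stages. Nefl stays level (326 and 333 FPKM), Nefm and Map1b show the widest gaps, with the pubertal point lower, and Map2 and Nefh have the pubertal point higher.

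Among the neurofilament genes, the light and heavy subunits were close to level between the stages and the medium subunit and alpha-internexin were lower in the pubertal library, but this pattern depends on the scaling. With Actb, the beta-actin gene, set equal in both libraries, Nefl stood at 0.44, Nefh at 0.49, Ina at 0.11 and Nefm at -0.06 on the log2 scale, where the median of all genes was 0.36. In bulk tissue such as this, fewer cells of a type and less RNA per cell cannot be told apart. Nefl (ENSRNOG00000013658), whose product forms the backbone of the filament, went from 326 to 333 FPKM, that is 0.03 as a log2 ratio. Its counting interval, -0.01 to 0.07, includes 0, with 11951 and 9590 fragments behind the values. Nefh (ENSRNOG00000008716), the subunit with the long phosphorylated tail that projects from the filament, had 55.0 FPKM before puberty and 58.8 FPKM at puberty. Its log2 ratio was 0.09 (counting interval 0.03 to 0.16).

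Nefm (ENSRNOG00000013916), the medium subunit, had the largest log2 ratio in size of the 8 genes as deposited. With equal Actb the largest, measured from 0, was that of Map2 (0.53, against -0.06 for Nefm). The median of all genes in that setting was 0.36, with Nefm below it and Map2 above it. Relative to the neuron markers Nefm stood at -0.30 and Map2 at 0.29. The level of Nefm was 46.1 FPKM before puberty and 33.3 FPKM at puberty (log2 ratio -0.46, counting interval -0.56 to -0.36). This value lay at percentile 4.85 of the log2 ratios of the 13804 genes. Nefm is listed with transcripts of 2538 and 2535 nt, and the longer one carried 99.99% of the FPKM before puberty and 99.7% at puberty. Transcripts of such near-equal length can share fragments, so the sum is the firmer value. Ina (ENSRNOG00000020248), alpha-internexin, went from 34.9 to 28.5 FPKM, that is -0.28 as a log2 ratio (counting interval -0.37 to -0.20).

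Nefl and Nefm are next to each other among the protein-coding genes of chromosome 15 in GRCr8, with log2 ratios of 0.03 and -0.46. Ratios of 2 genes within a library do not depend on how the libraries are scaled, but they keep the differences by transcript length given below. Relative to the median of genes of similar length, Nefl stood at 0.03, Nefm at -0.43, Nefh at 0.17 and Ina at -0.16. The FPKM of Nefm was 0.141 times that of Nefl before puberty and 0.0999 times at puberty, a log2 change of -0.50 (counting interval -0.61 to -0.39). Ina over Nefl went from 0.107 to 0.0856, a log2 change of -0.32 (-0.41 to -0.23). Nefh over Nefl, 0.169 and 0.177, moved by 0.06 on the log2 scale, with a counting interval of -0.01 to 0.14 that includes 0. Set against the medium subunit, the heavy subunit went from 1.19 to 1.77 times its FPKM, a log2 change of 0.57 (0.45 to 0.69).

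The make-up of the neurofilament pool followed these values. The 4 subunit genes summed to 462 FPKM before puberty and to 453 FPKM at puberty. Nefl made up 70.5% of this sum before puberty and 73.4% at puberty, Nefh 11.9% and 13.0%. Nefm took 9.98% before and 7.33% at puberty, and Ina 7.56% and 6.29%.

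**Figure D2:**
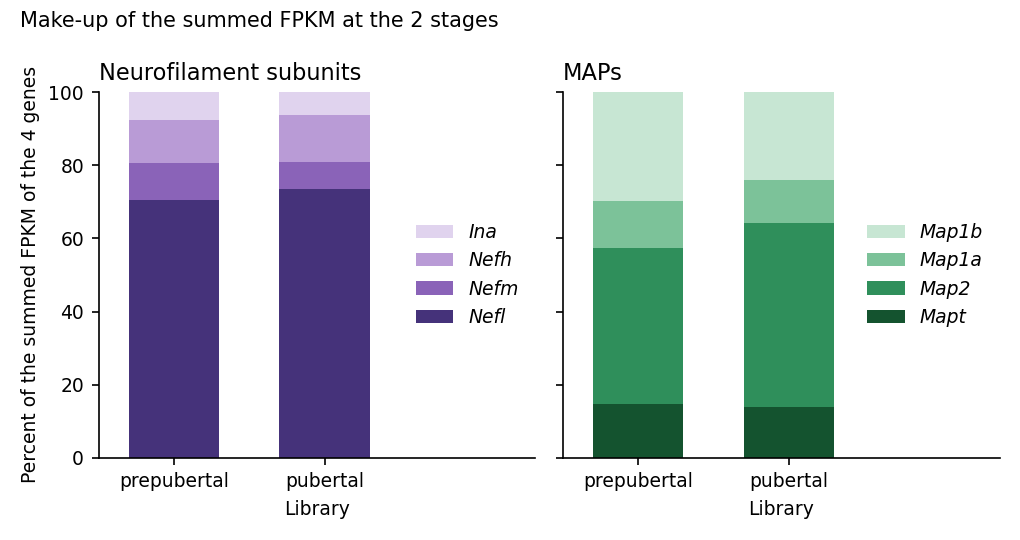
Stacked bars give the percent that each gene takes of the summed FPKM of the 4 neurofilament subunit genes (left) and of the 4 MAP genes (right), with 1 bar per library. The Nefm and Ina bands are narrower at puberty (9.98% to 7.33% and 7.56% to 6.29%), and on the right the Map2 band widens from 42.5% to 50.3% while the Map1b band narrows from 29.8% to 24.1%.

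Of the MAP genes, Map2 had the higher value at puberty and Mapt, Map1a and Map1b the lower one, while with equal Actb only Map1b had the lower value. Map2 (ENSRNOG00000011841) went from 255 to 279 FPKM, that is 0.13 as a log2 ratio (counting interval 0.11 to 0.16). Mapt (ENSRNOG00000005133), the gene of tau, went from 88.4 to 77.2 FPKM, that is -0.19 as a log2 ratio (-0.29 to -0.09). Tau over MAP2 was 0.347 before puberty and 0.276 at puberty, a log2 change of -0.33 (-0.43 to -0.23) in this ratio of an axonal to a dendritic protein's mRNA.

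The MAP1 genes encode large precursors that are cut into a heavy and a light chain. Map1a (ENSRNOG00000014230) went from 77.7 to 65.1 FPKM, that is -0.25 as a log2 ratio (counting interval -0.29 to -0.22). Map1b (ENSRNOG00000017428) went from 179 to 134 FPKM, that is -0.41 as a log2 ratio (-0.43 to -0.39), at percentile 6.51 of the 13804 genes. It had the most fragments of the 8 genes, 42960 and 25281. Map1b over Map1a was 2.30 before puberty and 2.06 at puberty, a log2 change of -0.16 (-0.20 to -0.12), so Map1b had the higher FPKM of the pair at both ages. In the summed FPKM of the 4 MAP genes, 600 before puberty and 556 at puberty, Map2 took 42.5% and 50.3%, Map1b 29.8% and 24.1%, Mapt 14.7% and 13.9%, and Map1a 13.0% and 11.7%.

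Mapt and Map2 are spliced into several forms, and the tables list 7 transcripts of Mapt and 3 of Map2. Long and short forms of Map2 are known, as are tau forms that differ in their microtubule-binding repeats, but the tables do not say which form a listed transcript is. The Map2 transcript of 5733 nt carried 87.4% of the FPKM of the gene before puberty and 90.2% at puberty, at 223 and 252 FPKM, that is 0.18 as a log2 ratio. The transcript of 5826 nt was lower in the pubertal library, with 14.1 and 9.82 FPKM, that is -0.48 as a log2 ratio. The short transcript, of 1740 nt, was nearly level at 18.2 and 17.6 FPKM. As deposited, 1 of the 3 Map2 transcripts had the higher value at puberty, and with equal Actb 2 of the 3 did, the 1740 nt transcript then standing at 23.3 FPKM at puberty.

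For Mapt, 2 transcripts carried most of the FPKM. That of 1337 nt went from 36.3 to 32.2 FPKM, a share of 41.1% and 41.8%, and that of 1250 nt from 32.0 to 30.0 FPKM, a share of 36.2% and 38.9%. The transcript of 1244 nt had the largest difference on the log2 scale, from 9.12 to 6.07 FPKM (-0.52). The one of 1622 nt went from 8.35 to 6.99 FPKM. Those of 2367 and 2186 nt stayed at or below 1.56 FPKM, and that of 2384 nt was listed at 0 in both libraries. Each of the 6 Mapt transcripts above 0 was lower in the pubertal library as deposited, while with equal Actb 4 of the 6 were higher. The shares of single transcripts are estimates by the authors' software from fragments that the forms have in common, and carry more error than the sums.

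**Figure D3:**
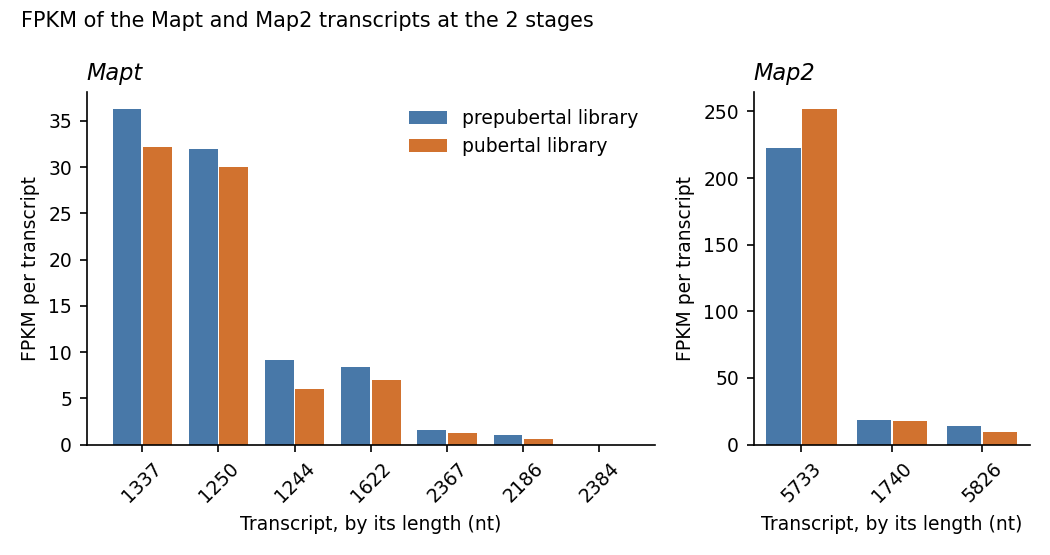
FPKM of each listed transcript of Mapt (left) and Map2 (right), named by its length in nt, with 1 bar per library. The 1337 nt and 1250 nt transcripts hold most of the Mapt FPKM in both libraries, and the 5733 nt transcript of Map2 is, as deposited, the one with the higher bar at puberty (223 and 252 FPKM).

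None of the 8 genes differed by 1.5-fold or more in FPKM + 1. Of the 13804 genes, 1.77% were at least 1.5-fold higher and 2.41% at least 1.5-fold lower in the pubertal library. At a lower bar, a log2 ratio of at least 0.32 in size, 0 of the 8 were higher, against 7.69% of all genes, and Nefm and Map1b, 2 of the 8, were lower, against 11.0% of all genes. The median log2 ratio was -0.13 for the 4 neurofilament genes and -0.22 for the 4 MAP genes, against -0.01 over the 13804 genes (quartiles -0.17 and 0.14). The 3785 genes with a mean FPKM of at least 31.7, that of Ina as the lowest of the 8, had a median of 0.04, and 41.4% of them were lower in the pubertal library. Of the 8 genes, 5 were lower and 3 higher, but after scaling the libraries to equal Actb, Ina, Mapt and Map1a turned to a higher value at puberty and the lower genes were Nefm and Map1b alone (log2 ratios of -0.06 and -0.01). With equal Actb, Nefl at 0.44, Nefh at 0.49 and Map2 at 0.53 passed the bar of 0.32 as higher, 3 of the 8 against 56.1% of all genes, and 0 of the 8 passed it as lower, against 1.77%. That scaling shifted the median of all genes by 0.37, while scaling to equal medians shifted it by 0.05.

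The log2 ratios of all genes were also set out by length. In 10 classes of equal size by the longest transcript, the median log2 ratio went from 0.08 in the shortest class (168 to 780 nt) to -0.12 in the longest (4501 to 22077 nt). Ina, Map2, Map1a and Map1b belong to the longest class, with transcripts of 4566, 5826, 10110 and 11866 nt. Relative to the median of its own class, the log2 ratio was -0.29 for Map1b, -0.13 for Map1a, -0.16 for Ina and 0.25 for Map2. Nefm, at 2538 nt in a class with a median of -0.03, lay at -0.43 relative to it, and Mapt at -0.20. Nefh lay at 0.17 and Nefl at 0.03. Mapt was placed by its transcript of 2384 nt, which is listed at 0, while its main transcripts of 1337 and 1250 nt fall in a class with a median of 0.05. The part of length in the values of single genes was not tested.

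**Figure D4:**
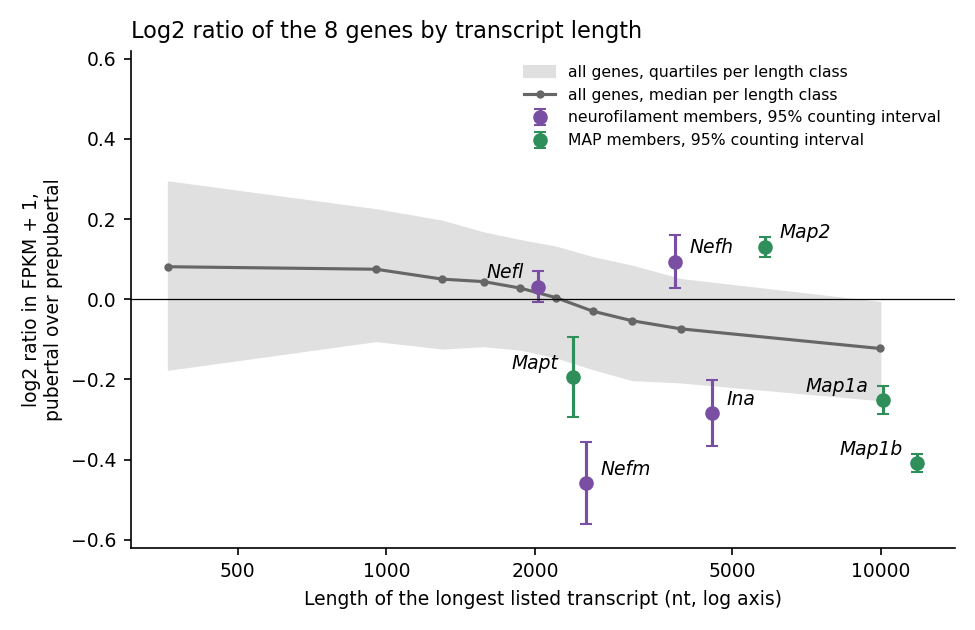
Log2 ratio (pubertal over prepubertal, FPKM + 1) against the length of the longest listed transcript on a log axis, for the 8 genes with 95% counting intervals; the grey line and band are the median and quartiles of all genes in each of 10 length classes. Nefl lies inside the quartiles of its class, Nefh (0.09) and Map2 (0.13) above them, and Nefm (-0.46), Map1b (-0.41), Ina (-0.28), Mapt (-0.19) and, by a hair, Map1a (-0.25) below them.

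Other genes of the cytoskeleton were given by 7 lists of 127 genes, of which 124 were matched and 120 passed the filter. Their median log2 ratio was -0.12, with 31 above 0 and 89 below, where 51.0% of the 13804 genes were below 0. At 1.5-fold, 0 of the 120 were higher, against 1.77% of all genes, and 1 was lower, against 2.41%, namely Atat1, the tubulin acetyltransferase, with 5.81 and 3.50 FPKM (-0.60). At the lower bar of 0.32, 2 of the 120 were higher and 19 lower, against 7.69% and 11.0% of all genes. With the libraries scaled to equal Actb the median of the lists was 0.27, below the 0.36 of all genes in that setting. Of the 120, 8 were then at least 1.5-fold higher, against 16.3% of all genes, and 0 lower, against 0.710%. Relative to the neuron markers the median of the lists was 0.04.

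The other intermediate filament genes had a median of 0.05 over 11 genes (0.41 with equal Actb), 7 above 0 and 4 below. Krt8, a keratin, had 3.68 and 5.96 FPKM (0.57), and Sync, syncoilin, 4.18 and 5.93 FPKM (0.42). Lmnb1, a nuclear lamin, had 6.36 and 4.85 FPKM (-0.33), and Nes, nestin of neural progenitors, 2.77 and 2.20 FPKM (-0.24). The 31 other structural MAPs had a median of -0.12, 6 above 0 and 25 below, which turned to 0.26 with equal Actb and 0.05 relative to the neuron markers. Map7d1 had 17.1 and 11.3 FPKM (-0.56) and Stmn2, a microtubule-destabilising protein of growing axons, 237 and 172 FPKM (-0.46). Its relatives Stmn1 and Stmn3 had the highest log2 ratios of this list, 0.28 and 0.25.

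The tubulins had a median of -0.06 over 12 genes, which turned to 0.32 with equal Actb. Tubb6 (4.45 and 2.92 FPKM, -0.47) and Tubg2 (10.6 and 9.41 FPKM, -0.16) were the lowest, Tubg1 (24.5 and 28.8 FPKM, 0.23) and Tubb4b (601 and 638 FPKM, 0.09) the highest. Tubulin genes have near-identical copies, Tuba1b is listed at 0 in both libraries, and the values of single tubulins are uncertain. Kinases and phosphatases that act on tau and neurofilaments had a median of -0.20 over 20 genes, 15 of them below 0, which turned to 0.17 with equal Actb and was -0.03 relative to the neuron markers. Gsk3b, a tau kinase, had 32.8 and 24.8 FPKM (-0.39), Mark3 44.5 and 50.2 FPKM (0.17) and Cdk5, which phosphorylates tau and neurofilament tails, 89.9 and 99.6 FPKM (0.15).

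The kinesins and dynein subunits, which carry cargo along microtubules, had a median of -0.11 over 20 genes, which turned to 0.29 with equal Actb. Kif1a had 163 and 124 FPKM (-0.39), Kif21b 6.62 and 5.29 FPKM (-0.28), Kif5b 127 and 146 FPKM (0.20) and Dync1li2 196 and 211 FPKM (0.10). Genes of microtubule severing and tubulin modification had a median of -0.13 over 15 genes (0.25 with equal Actb), with Vash2 at 5.05 and 3.08 FPKM (-0.57) next to Atat1. Katna1, of the severing enzyme katanin, had 8.42 and 8.96 FPKM (0.08). The plakins, spectrins and ankyrins, which link filaments to the membrane, had a median of -0.15 over 11 genes, 10 of them below 0. This median turned to 0.23 with equal Actb and was -0.03 relative to the length classes. Dst, dystonin, had 76.3 and 54.9 FPKM (-0.47), Ank3, ankyrin-G of the axon initial segment, 32.3 and 24.8 FPKM (-0.37) and Sptb 13.3 and 14.3 FPKM (0.10).

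Markers of neurons and of neighbouring brain regions were set beside these values. The 14 neuron markers, all above the filter, had a median log2 ratio of -0.16, or 0.24 with equal Actb, with 3 above 0 and 11 below, and summed to 3964 FPKM before puberty and 3713 FPKM at puberty. Relative to this median, the log2 ratios of the 8 genes were -0.30 for Nefm, -0.25 for Map1b, -0.12 for Ina, -0.09 for Map1a, -0.03 for Mapt, 0.19 for Nefl, 0.26 for Nefh and 0.29 for Map2. The hypothalamus markers were present, 16 of 16 above the filter, with a median of 0.24 (0.61 with equal Actb) and sums of 2843 and 4280 FPKM. Pmch and Oxt carried most of that difference, and the other 14 summed to 756 and 872 FPKM. Of 11 telencephalon markers, 7 passed the filter, with a median of -0.57 (-0.28 with equal Actb) and sums of 133 and 74.5 FPKM, 1 was not matched and 0 were listed at 0 in both libraries. Camk2a, a kinase of forebrain excitatory neurons, had 59.6 and 24.8 FPKM (-1.23). The 10 thalamus markers, all above the filter, had a median of -0.36, or 0.03 with equal Actb, with 9 of the 10 below 0. Their sums, 595 and 589 FPKM, are carried by Calb2 (323 and 374 FPKM), and the other 9 summed to 272 and 215 FPKM. Both splits were made after the values were seen. The part of these markers in the values of the 8 genes was not tested.

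**Figure D5:**
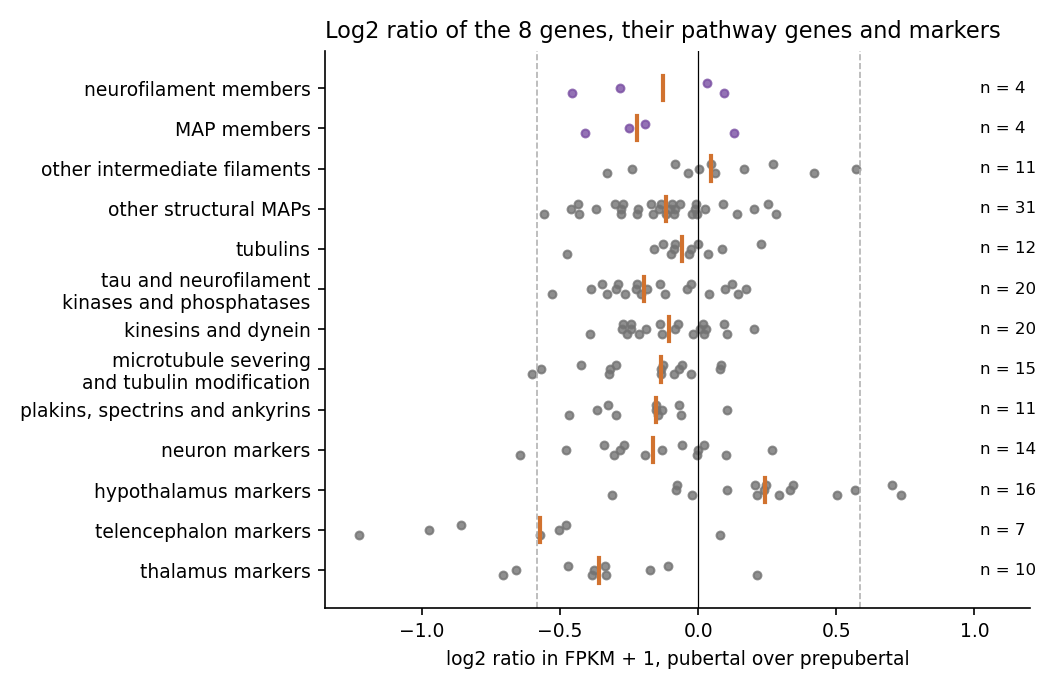
Each point is a gene that passed the filter, placed by its log2 ratio (pubertal over prepubertal, FPKM + 1); rows are the 8 genes in 2 groups, the 7 pathway lists and 4 marker lists, orange bars are medians, dashed lines mark 1.5-fold, and n is the number of genes. The 8 genes stay inside the 1.5-fold lines, the pathway medians run from -0.20 to 0.05, and the telencephalon markers reach furthest to the left, with a median of -0.57.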

How the data were processed

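Hypothalamic RNA of prepubertal and pubertal rats was sequenced after removal of ribosomal RNA, from strand-specific, paired-end libraries. The authors aligned reads with TopHat, assembled them with Scripture and Cufflinks 2.1.1 and estimated the deposited FPKM per transcript with Cuffdiff 2.1.1, already scaled for depth and length. The labels name Rnor_5.0 and the methods an Rnor_6.0 annotation, so no file coordinates are given. The authors' deposited table of the comparison also holds fold changes, p-values and q-values, which were not used. Its gene names and lengths were used, and its FPKM as an alternative (13 of 26324 transcripts differed, none of the 17).

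FPKM was summed per gene, with a pseudocount of 1, and compared as log2 ratios. Medians and background shares are over 13804 genes with a mean FPKM of at least 1. The depth was read from genes with 1 transcript of 900 to 6000 nt: after subtraction of 260 nt (prepubertal) and 255 nt (pubertal) from the length, 96.9% of 1124 and 96.6% of 1257 low values were whole fragment numbers within 0.1. Counting intervals are exact (Clopper-Pearson) for genes and normal approximations for ratios of genes. The calculations were tested on simulated data. The 8 genes, the lists and the folds were chosen with earlier results of these data known, and the pairs of genes set in ratio after their values were seen. Named were the 8 genes, and in each pathway list up to 2 genes with the highest and 2 with the lowest log2 ratio at an FPKM of at least 1 in 1 library, and any past 1.5-fold. Some genes that this rule names are not reported here. Versions were Python 3.11.15, scipy 1.17.1, numpy 2.4.6, matplotlib 3.10.9 and pandas 2.3.3.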

Additional observations from a re-analysis of the deposited data

How the results depend on the processing

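With 1 column per stage, no library could be left out, and precision beyond counting error is unknown. No paired analysis was possible because each stage has 1 column. A pseudocount of 0.1, no filter, a filter at 0.1, equal upper quartiles and the comparison table's FPKM moved none of the 8 log2 ratios by more than its counting interval. For the 8 genes, their medians and the pooled pathway lists, each value that moved by more is given here. With libraries scaled to equal Actb, a factor of 1.32, the log2 ratios became 0.44 for Nefl, -0.064 for Nefm, 0.49 for Nefh, 0.11 for Ina, 0.21 for Mapt, 0.53 for Map2, 0.15 for Map1a and -0.0069 for Map1b, with medians of 0.27 (neurofilament genes) and 0.18 (MAP genes). Actb itself went from 763 to 576 FPKM. Centred on the neuron markers they were 0.19, -0.30, 0.26, -0.12, -0.031, 0.29, -0.088 and -0.25 in the same order, with medians of 0.037 and -0.060. Centred within length classes they were 0.17 for Nefh, -0.16 for Ina, 0.25 for Map2, -0.13 for Map1a and -0.29 for Map1b, with a MAP median of -0.16. Scaled to equal medians they were 0.087 for Nefl, 0.19 for Map2, -0.20 for Map1a and -0.35 for Map1b, with a MAP median of -0.17. By its highest transcript Map2 stood at 0.18. With a log2 bar of 0.32 in place of 1.5-fold, 2 of the 8 genes were lower. For the pathway lists, the median was 0.27 with equal Actb and 0.044 relative to the neuron markers. Their genes at least 1.5-fold higher numbered 1 with a pseudocount of 0.1, with equal medians and relative to the neuron markers, and 8 with equal Actb. Those at least 1.5-fold lower numbered 4 with a pseudocount of 0.1 and 0 in the other settings just named. Of the 21 medians of single lists, all 21 moved with equal Actb (neuron markers to 0.24, immature neuron genes to 0.27) and all 21 when centred on the neuron markers, as did 14 values in the other settings, among them the telencephalon markers at -0.80 with a pseudocount of 0.1. Apart from the scaling or centring itself, the cause was not tested.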

Other observations

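Genes of immature neurons, some of which share the axon growth setting of Map1b, had a median log2 ratio of -0.13 over 11 genes (0.27 with equal Actb). Of these, 4 were above 0 and 7 below, while their summed FPKM was 1968 before puberty and 2208 at puberty. Stmn1 had the highest level of this list, with 927 and 1127 FPKM (0.28). Igfbpl1 had the highest log2 ratio, with 3.95 and 6.19 FPKM (0.54). Gap43, a protein of growth cones, had 505 FPKM before puberty and 622 FPKM at puberty (0.30), and Crmp1, which acts in axon guidance, 37.3 and 25.6 FPKM (-0.53). These genes were named after their values were seen. The oligodendrocyte markers, whose myelin wraps the axons that neurofilaments fill, had a median of -0.15 over 9 genes (0.25 with equal Actb) and sums of 13044 and 14053 FPKM. The astrocyte markers had a median of 0.07 over 8 genes. Prph, the intermediate filament of peripheral neurons, had 21.2 and 21.9 FPKM (0.05), while Phox2a, Hoxb3 and Hoxa5 of the brain stem list were listed at 0 in both libraries. In that list 2 of 9 genes passed the filter. The red blood cell genes had a median of 0.63 over 5 genes, the meninges and fibroblast genes one of -0.75 over 8 genes, the pituitary genes one of 0.27 over 5 genes and the reference genes one of 0.15 over 8 genes.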
